A study of Mus musculus with 4 samples.

Results

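The 2 libraries of the line 2xSCS2F10, which the labels number as replicates, were set against each other as replicate 2 minus replicate 1. They are 2 of the 4 libraries of a study of clonal mouse lines labelled as progenitors of ICC, the interstitial cells of Cajal, which pace the gut wall. Every gene row with at least 10 counts summed over the 2 libraries was taken, which gave 14705 of 23358 rows. Without Rn45s and Lars2, the rows that gather ribosomal RNA reads, 14703 rows were kept. The filter stood at low depth, since 236 rows had exactly 10 counts and entered with log2 differences from -2.61 to 2.56, and 343 rows with 8 counts stayed out. Values are CPM, a row's counts scaled to a library total of 1000000 counts in genes without Rn45s and Lars2, and a log2 difference is the log2 of replicate 2 over replicate 1 with 1 fragment added to each.

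Both libraries came from cells of the gastric muscle coat (tunica muscularis) of C57BL/6J mice, grown at 37 °C in NeuroCult neural stem cell medium with 5% chick embryo extract. The 2 libraries of the line 2xSCS70 served as the yardstick for the size of a difference between replicates. That line came from the same tissue of H-2Kb-tsA58 mice, whose cells carry a heat-sensitive T antigen under an interferon-inducible promoter, and it was grown at 39.5 °C without interferon gamma and with no extract named. Each line is 1 clone, so neither stands for ICC progenitors at large. The labels give no genotype beyond the strain, no passage number, no confluence and no date, and they do not say whether the 2 libraries of a line came from separate cultures.

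Dividing cells switch on the genes of DNA replication first, through E2F transcription factors. Those of mitosis follow later, through CHR and CCAAT elements in their promoters. Smooth muscle and fibroblast-like cells of the gut wall make contractile filaments, collagens and the enzymes that remodel matrix. Serum response factor acts on contractile genes through CArG boxes, SREBP proteins on genes of sterol and fatty acid synthesis, and NF-kB on genes of cytokines and chemokines.

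With 1 library on each side no test across replicates existed, so no p-value is given. A difference of 2-fold or more was the fixed rule of size, and "rose" and "fell" are used only of rows past it. Intervals of folds are exact 95% intervals (Clopper-Pearson) on fragments, and they cover counting error only. Libraries held 38516714 and 40410464 counts in genes without Rn45s and Lars2 in 2xSCS2F10 and 47634848 and 41467480 in 2xSCS70, with 2 counts to a fragment. The floor of 3 fragments corresponded to 0.126 to 0.156 CPM. Rn45s took 3.74% and 8.27% of the counts in the 2 libraries of 2xSCS2F10 and 2.22% and 5.92% in those of 2xSCS70, so in both lines replicate 2 had the larger share. Lars2 moved the same way, from 0.732% to 2.13% and from 0.51% to 1.39%. The column names carry L1 for replicate 1 and L2 for replicate 2 in both lines, which the labels do not explain.

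The labelled cell type was checked first. Kit, the receptor that defines mature ICC, had 0 counts in both 2xSCS2F10 libraries, which allows up to 0.156 and 0.148 CPM. Ano1, the chloride channel of ICC pacemaking, stood at 30.1 CPM in replicate 1 and 17.3 CPM in replicate 2, against 2.65 and 2.99 CPM in 2xSCS70. Etv1, a transcription factor of ICC, had 0.0519 and 0.346 CPM, at a few fragments or fewer. Of the progenitor markers, Cd34 was at 99.3 and 46.8 CPM, Cd44 at 128 and 92.2 CPM, Igf1r at 153 and 150 CPM, Insr at 57.3 and 72.7 CPM and Pdgfra at 28.8 and 55.4 CPM. Cd34 fell by 1.09 on the log2 scale (2.12-fold, interval 1.96 to 2.3), and the other 4 stayed within 2-fold. Markers of the serosal lining (mesothelium) were also present: all 11 of the list passed the filter, with a summed level of 4493 and 4811 CPM in 2xSCS2F10, against 743.9 and 638.5 CPM in 2xSCS70. Upk3b had 1218 and 1154 CPM and Wt1 214 and 211 CPM, so these 2 differed little between the replicates. In the list, the keratins Krt19 (168 to 47.7 CPM) and Krt18 (154 to 69.3 CPM) fell, and Krt7 went from 209 to 390 CPM. Immune markers summed to 8.72 and 11 CPM and endothelial markers to 6.85 and 10.3 CPM, with 3 or 4 members of each list at 0 in each library.

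In replicate 2 of 2xSCS2F10, genes of mitosis and DNA replication were lower as a group, genes of sterol and fatty acid synthesis were moderately lower, and contractile, collagen, matrix-remodelling and inflammatory genes were higher. Over the 14703 rows, 766 rose (5.21%) and 1099 fell (7.47%). In the 2xSCS70 pair, over 13973 rows, 234 rose (1.67%) and 165 fell (1.18%). Of the rows measured in both pairs, 465 rose by 2-fold and stood 2-fold away from the change in the 2xSCS70 pair (3.33%), and 830 fell likewise (5.94%). At a mean of 10 CPM or more in both lines, 424 of 8465 rows were past 2-fold in either direction in 2xSCS2F10 (5.01%), while in the 2xSCS70 pair it was 1 row (0.0118%), Tmem38b. At that level the median absolute log2 difference was 0.24 in 2xSCS2F10 and 0.095 in 2xSCS70, and the 95th percentile was 1 and 0.29. Across the 13973 rows the differences of the 2 pairs had a Pearson r of 0.037, a description across genes that share their libraries.

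The split of the calls into higher and lower depended on the scaling. The median of all kept rows was -0.10 on the log2 scale, and 41.1% of the calls were higher. TMM scaling moved that median to 0.001 and gave 928 higher and 924 lower rows. On the deposited RPKM with 0.1 added the median was -0.24, with 376 higher and 957 lower rows. List medians below are to be read against -0.10. Counts of members lower or higher at all are to be read against the 59.8% of all kept rows that were lower. At 10 CPM or more, the 3 higher rows nearest to the threshold reached 1.007 past it and 0.991 short of it, and the 3 lower rows -1.005 and -0.996.

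**Figure D1:**
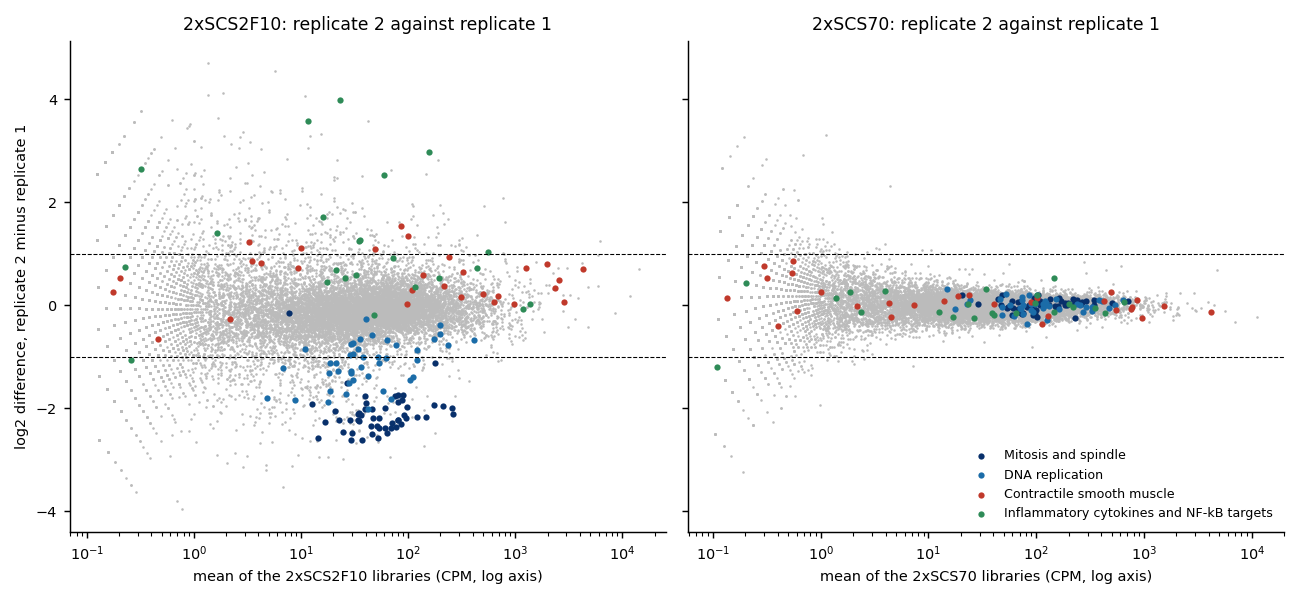
Log2 difference of replicate 2 minus replicate 1 (vertical axis) against the mean CPM of the line (horizontal log axis) for 2xSCS2F10 on the left and 2xSCS70 on the right; each grey point is a gene row, coloured points are members of 4 lists, and dashed lines mark 2-fold. The points of 2xSCS2F10 spread more widely at every level, and the mitosis genes form a separate band near -2.2 that is absent from the 2xSCS70 panel.

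Mitosis genes made the most uniform change. All 52 genes of the list passed the filter, all 52 were lower in replicate 2, and 51 of them fell, which is 98.1% of the list beside 7.47% of all rows. Their median difference was -2.18 (4.52-fold lower), and in the 2xSCS70 pair it was 0.02, with all 52 between -0.24 and 0.20. Summed over the list, the level was 5871 CPM in replicate 1 and 1425 CPM in replicate 2, against 7905 and 8050 CPM in 2xSCS70. Replicate 1 thus lay near the 2xSCS70 libraries and replicate 2 well below all 3. In bulk RNA, fewer dividing cells and less of these RNAs per cell cannot be told apart.

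The members ran from the regulators to the machinery of division. Ccnb2, a cyclin that drives entry into mitosis, had 50.3 and 8.17 CPM in 2xSCS2F10, against 62.1 and 60.0 CPM in 2xSCS70, a 6.16-fold fall (interval 5.22 to 7.31). Ccnb1, its close relative, went from 143 to 29.1 CPM. Cdk1, the kinase that both cyclins activate, went from 137 to 38.3 CPM. Foxm1, a transcription factor of mitotic genes, had 154 and 39.1 CPM, a 3.94-fold fall (3.64 to 4.27). Cdc20, which activates the complex that ends mitosis, went from 90.0 to 15.1 CPM, while Birc5, a subunit of the chromosomal passenger complex, went from 63.1 to 10.3 CPM. Top2a, which untangles chromosomes, had 429 and 99.3 CPM, and Mki67, the proliferation antigen, 333 and 85.6 CPM. The smallest falls in the list were those of the condensin subunit Smc4 (246 to 113 CPM) and of Mybl2 (39.6 to 13.9 CPM). Pttg1, securin, was the member that did not fall, at 8.15 and 7.33 CPM, with 57.6 and 61.4 CPM in 2xSCS70. Several of the largest falls at 10 CPM or more outside the list were also genes of division, among them Cdca3, Kifc1, Troap and Fam64a, which fell by 2.61 to 2.68 on the log2 scale.

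The promoters of these genes were looked up in RefSeq (GRCm38.p6), as windows of 250 bases before to 50 after the gene start, of which 10205 matched kept rows. Of the 52 mitosis genes 41 had a window, and 30 of these (73.2%) held the CHR letters TTTGAA on either strand, against 11.8% of all 10205. The CCAAT letters were in 30 of 41 (73.2%), against 38.5% of all. The median difference was -2.18 for the 30 members with the CHR letters and -2.18 for the 11 without, so within the list the size of the fall did not follow the match. The window of Ccnb2 (minus strand) is shown for its 250 bases before the start because it holds both elements, 3 CCAAT matches and 1 CHR match in capitals. A match is a description of the letters and not a site.
Ccnb2 chr9:70421555-70421804: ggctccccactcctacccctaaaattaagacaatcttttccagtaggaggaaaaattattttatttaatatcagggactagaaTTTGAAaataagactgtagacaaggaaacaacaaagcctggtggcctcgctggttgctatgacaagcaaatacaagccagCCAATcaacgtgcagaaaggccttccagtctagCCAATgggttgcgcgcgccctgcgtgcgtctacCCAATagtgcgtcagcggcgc

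DNA replication genes were lower by less. All 43 passed the filter and were lower in replicate 2, and 25 of them fell (58.1%, beside 7.47% of all rows). The median was -1.11 (2.16-fold lower), with a range from -2.002 to -0.26, and in the 2xSCS70 pair it was 0.00, with a range from -0.37 to 0.31. The summed level was 3690.0 and 1969 CPM in 2xSCS2F10, against 6804 and 6814 CPM in 2xSCS70. All members of both cell cycle lists were lower under every scaling tried. The enzymes that supply nucleotides included the largest and some of the smallest differences. Tk1, thymidine kinase, went from 66.8 to 16.6 CPM (4.02-fold, 3.56 to 4.54), Rrm2, the small subunit of ribonucleotide reductase, from 108 to 30.5 CPM, and Rrm1, its large subunit, from 504 to 316 CPM. Tyms, thymidylate synthase, had 54.8 and 37.0 CPM. The 6 subunits of the MCM helicase did not move by the same amount: Mcm5 had 153 and 56.4 CPM and Mcm7 163 and 78.8 CPM, which were falls, while Mcm6 had 222 and 171 CPM. Mcm10, which activates the helicase, went from 28.1 to 7.67 CPM. Pcna, the sliding clamp of the polymerases, had 299 and 174 CPM, a 1.72-fold difference (1.64 to 1.79) that stayed short of the rule.

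An E2F site in either of the forms TTTCCCGC and TTTGGCGC was present in 10 of the 32 replication genes with a window (31.2%), against 2.9% of all windows, and the CHR letters in 3 of 32 (9.38%). Members with an E2F match had a median of -1.02 and those without one of -1.20. The window of Mcm5 (plus strand, 250 bases before the start) is shown with its 1 TTTGGCGC match and 2 CCAAT matches in capitals, as a contrast with the mitotic promoter above, since its full window holds no CHR letters.
Mcm5 chr8:75109259-75109508: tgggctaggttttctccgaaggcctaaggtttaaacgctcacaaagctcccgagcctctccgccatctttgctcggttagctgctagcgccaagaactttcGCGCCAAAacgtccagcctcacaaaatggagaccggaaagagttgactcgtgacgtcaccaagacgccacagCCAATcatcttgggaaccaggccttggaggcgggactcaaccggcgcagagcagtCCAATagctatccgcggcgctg

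Upstream regulators of the cycle split into members that fell and members within 2-fold. Of 24 measured genes for G1 cyclins, CDK inhibitors, RB proteins and E2F factors, 6 fell (25%, beside 7.47% of all rows) and none rose, with a median of -0.33. Ccnd1, cyclin D1, which couples growth signals to the cycle, had 302 and 54.1 CPM in 2xSCS2F10, against 17.1 and 11.8 CPM in 2xSCS70, a 5.59-fold fall (5.24 to 5.97). Ccnd2, cyclin D2, had 987 and 775 CPM and Ccnd3 140 and 123 CPM, both within 2-fold. The other 5 that fell were E2f2, E2f7, E2f8, Cdkn2d and Ccne2. Among the inhibitors of the cycle, Cdkn2d thus fell, while several others were close to even. Cdkn1a (p21) had 190.1 and 194.8 CPM, Cdkn1b (p27) 135 and 113 CPM, Cdkn2a 102 and 94.8 CPM and Cdkn2b 48.9 and 58.7 CPM. Of 22 targets of p53 measured, 1 fell (4.55%, beside 7.47% of all rows) and none rose. That gene was Psrc1, a spindle protein, at 21.7 and 4.31 CPM.

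Genes for making ribosomes were slightly lower. All 37 measured genes of ribosome biogenesis were lower in replicate 2, none past 2-fold, with a median of -0.38 and a range from -0.67 to -0.03. Ncl, nucleolin, had 1438 and 905 CPM in 2xSCS2F10, while in 2xSCS70 it had 1465 and 1721 CPM. Under TMM scaling 36 of the 37 were lower. Of 77 cytosolic ribosomal proteins, 75 were lower, with a median of -0.37. Those genes are short, and the quintile of all rows with the shortest coding length had a median of -0.18 against -0.01 in the longest quintile (0.00 and 0.05 in the 2xSCS70 pair). The part of gene length in the result was not tested. Ribosomal proteins have many near-identical copies in the genome, so their single values are uncertain.

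**Figure D2:**
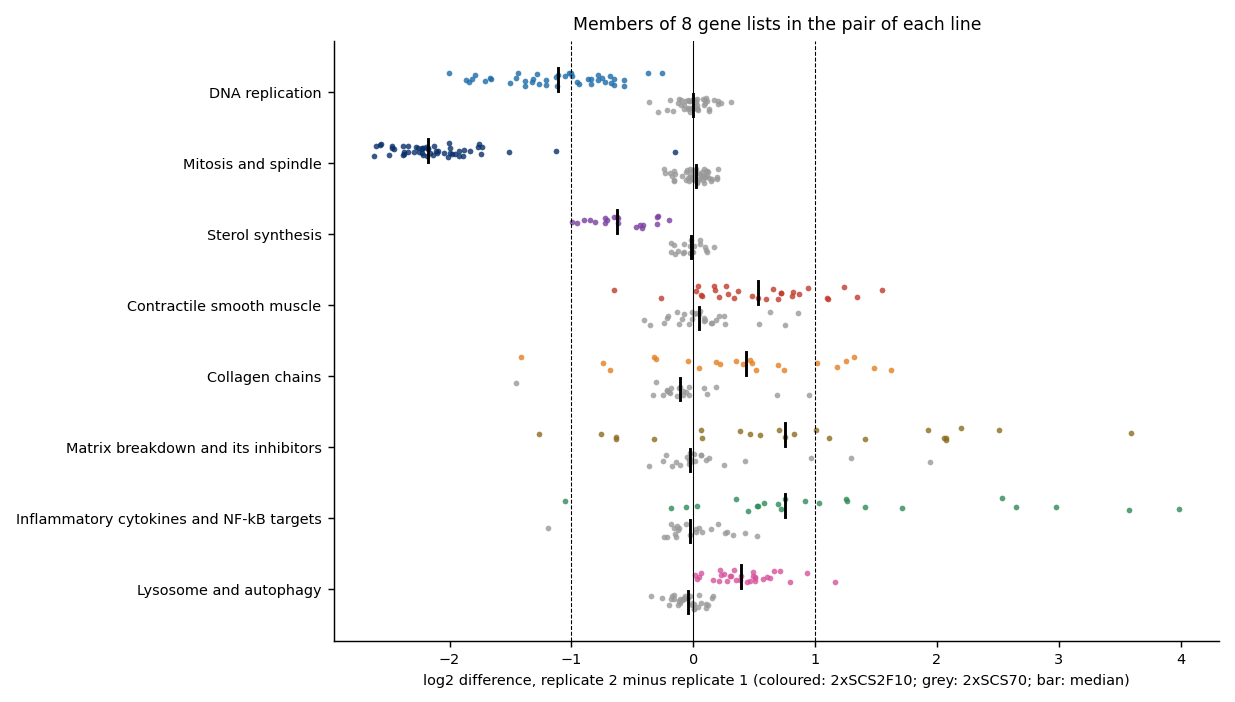
Log2 difference of replicate 2 minus replicate 1 (horizontal axis) of every measured member of 8 gene lists; coloured points are the 2xSCS2F10 pair, grey points the 2xSCS70 pair, black bars the medians and dashed lines 2-fold. All coloured points of the mitosis, replication and sterol lists lie left of 0 and all of the lysosome list lie right of 0, while the grey medians stay between -0.11 and 0.05.

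Sterol synthesis genes were lower together without a single member past 2-fold. All 20 genes of the pathway were lower in replicate 2, under every scaling tried, with a median of -0.62 (1.54-fold lower) and a range from -0.99 to -0.20. In the 2xSCS70 pair the median was -0.02 and all 20 lay between -0.18 and 0.17. With Rn45s and Lars2 in the totals, 2 of the 20 were past 2-fold in 2xSCS2F10, and on RPKM with 0.1 added 4 were. Replicate 1 stood above the 2xSCS70 libraries for most of the pathway. Hmgcs1, which makes HMG-CoA, had 1504 and 973 CPM in 2xSCS2F10, against 829 and 895 CPM in 2xSCS70 (1.55-fold lower in replicate 2, 1.52 to 1.57). Mvd, a later enzyme of the mevalonate steps, had 180.3 and 90.6 CPM against 77.0 and 70.7 CPM, a 1.99-fold difference (1.88 to 2.11) at the edge of the rule. Idi1 had 801 and 430 CPM, Sqle, the first enzyme to act on squalene, 629 and 409 CPM, and Dhcr7, which can act last on the way to cholesterol, 113 and 58.5 CPM. Fdps was the least different, with 537 and 467 CPM.

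Among 9 genes of sterol uptake and its control, none was past 2-fold and the median was -0.25. Insig1, the sterol-dependent brake on SREBP that is itself an SREBP target, had 703 and 362 CPM. Stard4, a sterol carrier, had 256 and 145 CPM. Npc1 and Npc2, which export sterol from lysosomes, were not lower, at 67.3 and 77.9 CPM and at 196 and 247 CPM. Of 15 genes of fatty acid synthesis, 14 were lower and 2 fell (13.3%, beside 7.47% of all rows), with a median of -0.58. Those 2 were Elovl6, an elongase, at 190.1 and 79.7 CPM, and Fasn, the fatty acid synthase, at 1002 and 483 CPM (2.07-fold, 2.02 to 2.12). Scd1, a desaturase, had 747 and 438 CPM.

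The sterol regulatory element, searched as TCACNCCAC on either strand, was in 1 of the 14 sterol windows, that of Hmgcs1, and in 1.15% of all windows. The CCAAT letters, a site of a partner factor in many of these promoters, were in 11 of 14 (78.6%), against 38.5% of all. The 250 bases of Hmgcs1 (plus strand) before the start are shown with these 1 and 3 matches in capitals.
Hmgcs1 chr13:119690101-119690350: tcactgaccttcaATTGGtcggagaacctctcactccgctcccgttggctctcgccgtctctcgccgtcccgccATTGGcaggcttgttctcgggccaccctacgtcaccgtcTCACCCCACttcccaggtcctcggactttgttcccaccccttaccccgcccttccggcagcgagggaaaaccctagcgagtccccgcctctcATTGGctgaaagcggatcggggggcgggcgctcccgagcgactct

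Contractile genes of smooth muscle were higher. Of 32 genes 29 were measured, 27 were higher in replicate 2, and 5 rose (17.2%, beside 5.21% of all rows), with none that fell. The median was 0.53, against 0.05 in the 2xSCS70 pair. On the RPKM scale with 0.1 added the median was 0.33, with 23 of 29 higher and 2 past 2-fold. Myh11, the myosin heavy chain of mature smooth muscle, had 43.9 and 128.5 CPM in 2xSCS2F10, against 0.924 and 1.11 CPM in 2xSCS70, a 2.93-fold rise (2.71 to 3.17). Mylk, the kinase that switches on that myosin, had 56.6 and 144 CPM (2.54-fold, 2.37 to 2.73). Ldb3 and Synpo2, which anchor filaments, also rose, from 6.28 to 13.6 CPM and from 1.92 to 4.6 CPM. Myl9, a regulatory light chain, had 166 and 320 CPM (1.92-fold, 1.84 to 2.01), and Acta2, smooth muscle actin, 3290.0 and 5342 CPM (1.62-fold, 1.61 to 1.64). Tagln, an actin-binding protein, had 1440.0 and 2529 CPM, a row that can share reads with a neighbour overlapping it on the other strand because the kit does not mark strand. Cnn1 had 190.3 and 246 CPM and Des, desmin, 3.01 and 5.35 CPM. The 2 members that were lower in replicate 2 were both sparse: Casq2, a calcium store protein, had 0.571 and 0.346 CPM and Synm, synemin, 2.39 and 1.98 CPM. The actin regulators Cfl2 and Dstn were near to even, at 0.03 and 0.04 on the log2 scale, and Srf itself had 97.3 and 119 CPM. For most of the list 2xSCS2F10 stood above 2xSCS70 in both replicates, so the difference between replicates was small beside that between the lines for Myl9 (0.378 and 0.724 CPM in 2xSCS70) and Tagln (40.1 and 40.7 CPM).

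The CArG box was in 4 of 25 contractile windows (16%), against 1.4% of all windows, and the 4 had a median of 0.83 against 0.33 in the 21 without. This leaves out the 4 measured members with no window, whose median was 0.96. The bases of Myl9 (plus strand, 250 before the start) are shown for the CArG box in capitals.
Myl9 chr2:156775214-156775463: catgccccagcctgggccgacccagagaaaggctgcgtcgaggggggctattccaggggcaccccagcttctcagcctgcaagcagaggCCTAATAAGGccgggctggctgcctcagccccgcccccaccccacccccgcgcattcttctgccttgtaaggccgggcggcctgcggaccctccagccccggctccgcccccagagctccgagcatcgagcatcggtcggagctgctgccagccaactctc

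Striated muscle genes were checked for a wider muscle programme. Of 10 markers 6 passed the filter and 3 of these rose (50%, beside 5.21% of all rows), but the list summed to only 11.7 and 26.2 CPM. Acta1, skeletal actin, had 3.79 and 11.1 CPM and Tnnc1, a troponin, 0.623 and 6.04 CPM.

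Collagen and matrix genes moved in both directions with more members higher. Of 22 collagen chains 6 rose (27.3%, beside 5.21% of all rows) and 1 fell (4.55%, beside 7.47%). The median was 0.43 against -0.11 in the 2xSCS70 pair. Col3a1, a chain of fibrillar collagen III, had 3640.0 and 8676 CPM in 2xSCS2F10, against 1248 and 1181 CPM in 2xSCS70, a 2.38-fold rise (2.36 to 2.4). Col11a1, which nucleates fibrils, had 391.6 and 1208 CPM against 3.65 and 3.13 CPM. The other 4 that rose were Col8a2 (182 to 454 CPM), Col5a3 (116 to 263 CPM), Col6a3 (9.81 to 27.5 CPM) and Col18a1 (6.8 to 13.8 CPM). The chain that fell, Col14a1, went from 4.31 to 1.58 CPM. The 2 chains of collagen I did not move alike, since Col1a1 had 11030.0 and 12580.0 CPM and Col1a2 10910.0 and 17700.0 CPM, and neither was past 2-fold. The collagen IV chains Col4a1 and Col4a2, found in basement membranes, were 0.46 and 0.51 higher on the log2 scale. Of the laminins and nidogens, Lama1 went from 45.9 to 175.5 CPM and Nid2 from 8.41 to 22 CPM, while the rest of the 16 basement membrane genes stayed within 2-fold and the list had a median of -0.01.

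Enzymes that process collagen stayed nearer to even. Of 19 measured, none rose and 2 fell (10.5%, near the 7.47% of all rows), with a median of 0.24. The lysyl oxidase Lox had 2305 and 3797 CPM and Bmp1, which trims procollagens, 116 and 220.0 CPM. Loxl4 and Pcolce2 were the 2 that fell, to 0.94 and 3.32 CPM. Of 15 elastic fibre genes 4 rose (26.7%, beside 5.21% of all rows) and 1 fell (6.67%, near the 7.47% of all rows). Emilin1 went from 27.3 to 69.4 CPM and Ltbp2 from 28.7 to 64.7 CPM, whereas Efemp1, a fibulin, went from 231 to 68.3 CPM (3.38-fold, 3.19 to 3.6). Of 23 matricellular proteins and proteoglycans 2 rose (8.7%, beside 5.21% of all rows) and 3 fell (13%, beside 7.47%), but only Tnc, tenascin C, was past 2-fold at 5 CPM or more, at 50.8 and 162 CPM. Bgn (800.1 and 1590.0 CPM), Wisp1 (526 and 1043 CPM) and Dcn (248 and 489 CPM) stood just short of 2-fold.

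Enzymes of matrix breakdown and their inhibitors rose in larger numbers. Of 23 measured, 10 rose (43.5%, beside 5.21% of all rows) and 1 fell (4.35%, beside 7.47%). The median was 0.75 against -0.02 in the 2xSCS70 pair. Mmp14, a membrane-bound protease that activates others, had 214 and 813 CPM in 2xSCS2F10, against 190 and 185 CPM in 2xSCS70, a 3.8-fold rise (3.67 to 3.93). Its substrate Mmp2 had 509.9 and 1025 CPM, Mmp13, a collagenase, 7.79 and 33.1 CPM, and Adamts4, an aggrecanase, 11.1 and 63.5 CPM. An inhibitor rose with them, since Timp1, which blocks metalloproteases, had 104 and 276 CPM (2.66-fold, 2.52 to 2.8). Plau, an activator of plasminogen, went from 10.2 to 22.1 CPM, but Plat, the other activator, had 51.7 and 33.4 CPM. Adamts1 and Adamts5 were lower within 2-fold, at 1178 and 697 CPM and at 623 and 401 CPM. Mmp3, the member that fell, was at 1.14 and 0.445 CPM, and 2 of the 10 that rose, Serpine2 and Mmp10, ended at only 0.594 and 1.19 CPM.

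**Figure D3:**
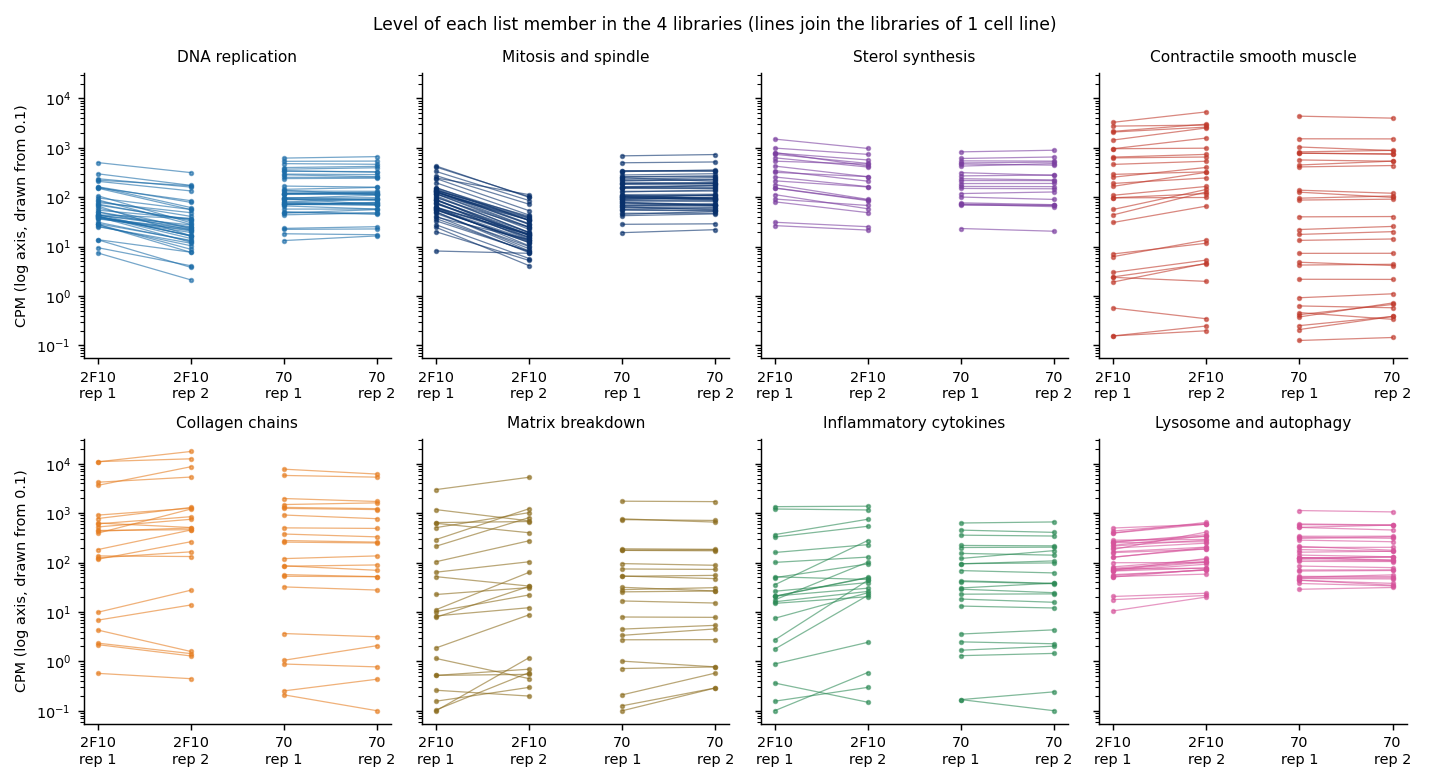
CPM (vertical log axis, values under 0.1 drawn at 0.1) of each measured member of 8 lists in the 4 libraries, with a line joining the 2 libraries of a cell line. Lines of the mitosis list slope down in 2xSCS2F10 and run level in 2xSCS70, and several lines of the inflammatory and matrix breakdown lists slope up in 2xSCS2F10.

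Inflammatory genes held some of the largest rises. Of 23 measured cytokines and NF-kB targets 10 rose (43.5%, beside 5.21% of all rows) and 1 fell (4.35%, beside 7.47%). The median was 0.75 against -0.03 in the 2xSCS70 pair. Saa3, an acute-phase protein, had 2.7 and 43.6 CPM in 2xSCS2F10, against 121 and 174 CPM in 2xSCS70, a 16.1-fold rise (12.2 to 21.8). Il6, the cytokine, had 1.77 and 21.6 CPM against 2.48 and 2.27 CPM, a 12.2-fold rise (8.61 to 17.9). The monocyte chemokines Ccl2 (35.4 to 279 CPM) and Ccl7 (17.5 to 102 CPM), which lie next to each other in the genome, rose by 2.98 and 2.54 on the log2 scale. For Ccl2 and Ccl7 replicate 2 came near the 2xSCS70 libraries (222 and 218 CPM, and 94.0 and 108 CPM), for Saa3 it stayed below them, and for Il6 it passed them. Cxcl1 (20.8 to 50.1 CPM), Cxcl16 (7.43 to 24.5 CPM), the adhesion molecule Vcam1 (20.6 to 49.3 CPM) and Ptgs2, the inducible cyclooxygenase (367 to 752 CPM), also rose. Members near to even included Cxcl12 (1353 and 1382 CPM) and Csf1 (1212 and 1160 CPM), and feedback inhibitors of the pathway were within 2-fold, with Nfkbia at 20.9 and 30.2 CPM and Tnfaip3 at 26.2 and 39.3 CPM.

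The interferon list was divided. Of 32 measured genes 6 rose (18.8%, beside 5.21% of all rows) and 2 fell (6.25%, near the 7.47% of all rows), with a median of 0.33. Cxcl10, a chemokine that NF-kB also controls, had 2.75 and 27.9 CPM, a 10.1-fold rise (7.65 to 13.7), but the other 5 that rose (Irf7, Mx2, Ifi44, Usp18 and Ifit1) stayed at or under 1.14 CPM. Ifit2 went the other way, from 26.8 to 9.21 CPM. Of 12 immune cell markers 7 passed the filter, with 4 of these higher in replicate 2 and 3 lower. Of the 7, 1 fell (14.3%, beside 7.47% of all rows) and none rose. Cd68 at 1.56 and 1.63 CPM, Csf1r at 1.92 and 3.22 CPM and Cd14 at 2.75 and 4.06 CPM were low but above the floor. The part of immune cells in the result was not tested.

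A kappaB site was in 7 of the 18 inflammatory windows (38.9%), against 5.46% of all windows. The list takes in NF-kB targets by choice, so its larger share says nothing about the difference between replicates. The members with a kappaB match had a median of 0.58 against 0.72 in the 11 without. This contrast leaves out the 5 measured members with no window, whose median was 1.71. The window of Il6 (plus strand, 250 bases before the start) is shown with its match in capitals. The motifs searched did not contain one another, apart from CArG boxes, which can hold the CCAAT letters.
Il6 chr5:30012864-30013113: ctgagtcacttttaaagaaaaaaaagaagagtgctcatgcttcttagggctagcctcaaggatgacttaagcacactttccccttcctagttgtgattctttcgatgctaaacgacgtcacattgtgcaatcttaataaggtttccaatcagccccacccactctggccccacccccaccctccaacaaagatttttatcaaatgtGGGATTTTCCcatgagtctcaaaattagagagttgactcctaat

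Lysosome genes differed little each and in 1 direction. All 31 were higher in replicate 2 with a median of 0.40 (-0.04 in the 2xSCS70 pair). Of these, 1 rose (3.23%, beside 5.21% of all rows). Grn, progranulin, had 184 and 414 CPM, while the protease Ctsl had 397 and 650 CPM and Ctsd 395 and 600.0 CPM. On the RPKM scale with 0.1 added, and with Rn45s and Lars2 in the totals, 27 of the 31 were higher. The CLEAR element, searched as TCACGTG, was in 6 of 23 windows (26.1%), against 5.77% of all, and the medians were 0.39 with it and 0.47 without.

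Several targets of BMP signalling were lower, while the pathway list as a whole had a median of -0.01. Of its 21 measured genes 4 fell (19%, beside 7.47% of all rows) and 1 rose (4.76%, near the 5.21% of all rows). Id1, an inhibitor of helix-loop-helix factors and a direct BMP target, had 87.9 and 15.2 CPM in 2xSCS2F10, against 24.1 and 26.4 CPM in 2xSCS70, a 5.77-fold fall (5.11 to 6.53). Id3 went from 70.1 to 11.9 CPM, Id2 from 8.41 to 0.94 CPM and Smad6, a feedback inhibitor, from 49.8 to 19.5 CPM. The ligand Bmp4 had 125 and 67.5 CPM. Id4 did not share the fall, with 4.99 and 7.18 CPM. Pmepa1, a TGF-beta target, rose from 171 to 380.0 CPM. Atoh8, a helix-loop-helix factor, had the largest fall of all rows at 10 CPM or more, from 43.8 to 5.49 CPM (7.97-fold, 6.53 to 9.8), with 12.2 CPM in each library of 2xSCS70.

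Other large single changes at 10 CPM or more lay outside the lists. Igfbp2 fell from 120 to 15.5 CPM (7.71-fold, 6.85 to 8.7), whereas Igfbp3, another binding protein of insulin-like growth factors, rose from 43.1 to 253 CPM (5.87-fold, 5.45 to 6.32). Both had under 2 CPM in the 2xSCS70 libraries. Cxcr7, a scavenging receptor of Cxcl12, fell from 31.9 to 4.11 CPM and Limch1, a regulator of nonmuscle myosin, from 245 to 36.7 CPM. The lectin Clec2e (1.19 to 20.7 CPM), the metalloreductase Steap4 (6.39 to 77.1 CPM), Ndrg2 (2.23 to 22.2 CPM), Angptl7 (46.4 to 330 CPM), Pglyrp3 (5.3 to 37.8 CPM) and the interleukin 4 receptor chain Il4ra (19.2 to 119 CPM) rose. Counted over the 49 lists, 94 of the 355 rows that fell at 10 CPM or more were list members (26.5%), of which 51 were mitosis and 22 replication genes. Of the 178 that rose, 41 were list members (23%), with 8 inflammatory, 7 matrix breakdown and 6 collagen genes. Over all levels, 1015 of the 14703 kept rows were list members, and the share of list members at 10 CPM or more was not counted.

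**Figure D4:**
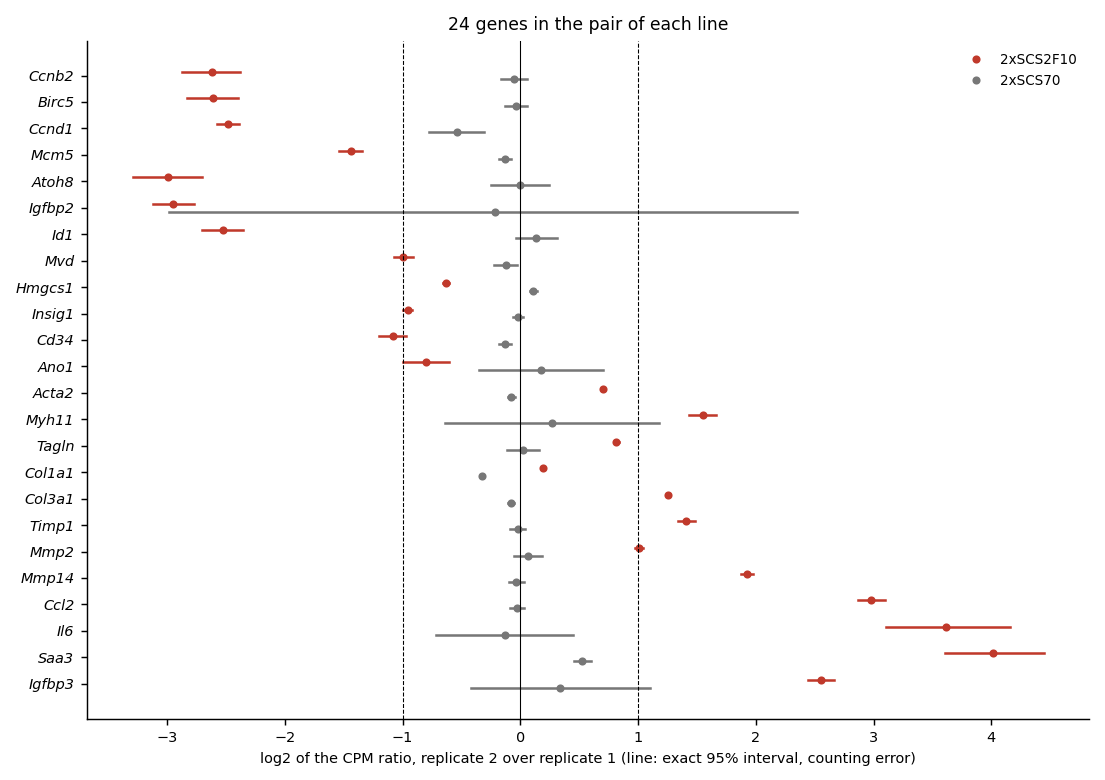
Log2 of the CPM ratio of replicate 2 over replicate 1 for 24 genes named in the text (horizontal axis); red is the 2xSCS2F10 pair, grey the 2xSCS70 pair, and horizontal lines are exact 95% intervals that cover counting error only. Ccnb2, Birc5, Atoh8 and Id1 lie left of -2 and Ccl2, Il6, Saa3 and Igfbp3 right of 2 in red, while the grey points lie within 2-fold.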

How the data were processed

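Total RNA was sequenced with a TruSeq mRNA kit, which does not mark strand, per the labels' protocols. The submitters' processing notes name TopHat2 2.0.6, Bowtie and HTSeq and the mouse build mm10. The annotation was not given in the sources used here. Raw counts per gene and RPKM values were deposited by the authors for each library, per the file headers. All counts were even, so 1 fragment was taken as 2 counts. In the tables, 25 gene names that had turned into dates were restored, and 69 rows shared a name and were kept apart by position.

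From the counts, CPM were computed on totals without Rn45s and Lars2, and replicate numbers were taken from the sample titles. Rows needed 10 counts over the pair, and the log2 difference had a prior of 1 fragment. On simulated data known folds were recovered as medians over rows at 10 CPM or more, and sparser rows were not checked. Python 3.11.15, edgeR 4.0.16 (TMM factors) and DESeq2 1.42.0 (size factors) were used for scaling alone, with no model fitted.

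Named were the 12 largest differences each way at 10 CPM or more, up to 4 changed and 2 abundant members of each list at 5 CPM or more, 12 genes of interest, and the 5 largest same-sign changes of both pairs each way. Some further list members were named after their values were seen. The members and the 49 lists were chosen with earlier results of these data known. Alternatives were other scalings, priors, filters and folds. Promoter windows came from RefSeq (GRCm38.p6). A few list members are counted in their lists but not reported here by name.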

Additional observations from a re-analysis of the deposited data

Results flagged for a closer look

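In 6 lists the median moved in opposite directions in the 2 lines, by 0.1 or more in each; these differences between the pairs were not tested. The medians on the log2 scale were 0.43 in 2xSCS2F10 and -0.11 in 2xSCS70 for collagen chains, and 0.24 and -0.13 for collagen processing. For elastic fibre genes they were 0.21 and -0.11, and for glycolysis 0.23 and -0.14. For YAP and TEAD targets they were 0.23 and -0.10. Small and non-polyadenylated RNAs went the other way, with -0.25 and 0.18.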

How the results depend on the processing

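No paired analysis was possible because each side held 1 library, and for the same reason no replicate could be left out. Of 487 list medians under the alternatives, 441 moved by less than 0.19, the spread of the 2xSCS70 pair. The median took the other sign under at least 1 alternative in 13 of 49 lists. In 12 of these it was small as reported, from -0.19 to 0.33, for example basement membrane (-0.13 to 0.23 over the settings) and the Wnt pathway (-0.16 to 0.13). In the other, PDGFRA-positive interstitial cell markers, it went from -0.91 to 0.05 with at least 100 counts and to 0.05 at a mean of 5 CPM, where fewer of its 4 members were left. Among the leading lists, RPKM with 0.1 or 1 added gave contractile medians of 0.33 and 0.21 and matrix breakdown medians of 0.54 and 0.28, and RPKM with 1 added an inflammatory median of 0.47. Of 193 genes carried through the alternatives, none past 2-fold changed sign. Some list members named in the text, such as Mmp14 and Timp1, were not among them.

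Counts of rows depended on filters, priors and thresholds. Rows that rose numbered 376 and 126 on RPKM with 0.1 and 1 added, 489 with a prior of 5 fragments, 338 with at least 100 counts, 217 at a mean of 5 CPM, 1629 at 1.5-fold and 173 at 4-fold. Rows that fell numbered 413 on RPKM with 1 added, 2030 with no filter, 606 with 100 counts, 451 at 5 CPM, 2360 at 1.5-fold and 217 at 4-fold. Rows that rose and stood apart from the 2xSCS70 pair numbered 253 and 101 on RPKM with 0.1 and 1 added, 211 with 100 counts, 174 at 5 CPM, 1050 at 1.5-fold and 91 at 4-fold. Rows that fell likewise numbered 292 on RPKM with 1 added, 1290 with no filter, 479 with 100 counts, 400 at 5 CPM, 1787 at 1.5-fold and 149 at 4-fold. In rows of few fragments even differences well past 2-fold were not resolved at this depth. Etv1, with 1 and 7 fragments, was 6.67-fold higher with an interval from 0.857 to 300.7. The quintile of rows with the lowest mean CPM held 423 of the 766 rows that rose and 485 of the 1099 that fell.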

Other observations

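Genes of stress and metabolism were mostly nearer to even. Of 35 genes of the ATF4 and amino acid response, 29 were lower, beside 59.8% of all rows, and under TMM scaling 24 were. Only 2 fell (5.71%, beside 7.47% of all rows) and 1 rose (2.86%, beside 5.21%). Psat1, a serine synthesis enzyme, went from 540 to 194 CPM and Slc7a11, a cystine transporter, from 186 to 89.5 CPM, while Nupr1, a stress-induced chromatin protein, went from 107 to 322 CPM. Of 20 NRF2 targets 17 were lower and 3 fell (15%, beside 7.47% of all rows), with a median of -0.39; besides Slc7a11 these were Osgin1 and Gstm1. Hspb1, a small heat shock protein, rose from 111 to 355 CPM, the 1 of 13 heat shock genes past 2-fold (7.69%, beside 5.21% of all rows). In the hypoxia list of 14 genes 2 rose (14.3%, beside 5.21% of all rows), Bnip3 (11 to 40 CPM) and Pdk1 (22.1 to 45.3 CPM), and 1 fell (7.14%, near the 7.47% of all rows), while Vegfa had 368 and 410 CPM. Of 14 YAP and TEAD targets 3 rose (21.4%, beside 5.21% of all rows), namely Nt5e (49.2 to 125 CPM), F3 (86.0 to 197 CPM) and Fjx1, and Ctgf had 810 and 1279 CPM. Jag1, a Notch ligand, rose from 83.1 to 171 CPM. Of 8 adipocyte markers only 3 passed the filter, and 2 of these fell (66.7%, beside 7.47% of all rows). Lpl, lipoprotein lipase, fell from 178 to 39.5 CPM and Pparg, the adipocyte regulator, from 4.99 to 2.23 CPM. The other kept marker was higher by 0.215 on the log2 scale.

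At 10 CPM or more in both lines, the 1 row past 2-fold in the 2xSCS70 pair, Tmem38b, rose in both pairs. Rows that moved the same way by less were not counted. Among rows higher in both, the largest were Tmem38b (6.8 to 15.1 CPM in 2xSCS2F10 and 8.61 to 17.6 CPM in 2xSCS70) and Malat1, a nuclear noncoding RNA (4025 to 7877 CPM and 3629 to 5856 CPM). Nexn was higher by 0.98 and 0.48 on the log2 scale. Tuba1b was lower in both by more than Malat1 was higher, at 130 and 50.7 CPM and at 117 and 66.9 CPM; its sequence is close to that of other tubulin genes, so its counts are uncertain.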
